A study of Sus scrofa with 4 samples.

Results

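Collagens are the structural proteins of the extracellular matrix, built from chains that wind into a triple helix. Fibrillar collagens form the fibres of the interstitium and of scars, type IV collagen forms the sheet-like network of basement membranes, and the remaining types link, anchor or organise these structures or span the cell membrane. In the kidney, a type IV network of the COL4A1 and COL4A2 chains underlies most tubules and vessels, and a network of the COL4A3, COL4A4 and COL4A5 chains, made in the glomerulus by podocytes, forms the mature filtration barrier.

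The 40 collagen genes described here are those whose symbol is COL, a number, A and a number, and which had at least 10 counts in 1 or more of 4 libraries. The files listed 43 such symbols among 26466, and 18168 genes of any kind passed the same minimum. The collagens that passed comprised 10 of 11 fibrillar genes, 8 of 8 basement membrane genes (types IV, XV and XVIII) and 22 of 24 genes of other types. COL6A1 and COL6A4 were not among the 43 symbols and so could not be analysed here. The members closest to the minimum were COL2A1, COL9A1 and COL7A1, with highest counts of 13, 14 and 16 in any library. Just outside it were COL9A2, with a highest count of 8, COL20A1, with 4, and COL11A2, with 3.

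RNA was sequenced from pig kidneys, 1 library in each of 4 groups. In the CD39/CD46/CD55/TBM genotype (GalT-/-;hCD39;hCD46;hCD55;TBM) the pigs carried human CD39, CD46 and CD55 together with thrombomodulin, and in the CD39/CD55 genotype (GalT-/-;hCD39;hCD55) they carried human CD39 and CD55. Pigs of both genotypes lacked the galactosyltransferase that makes the alpha-Gal sugar antigen, so no comparison here bears on that deletion. CD39 breaks down extracellular ATP, CD46 and CD55 restrain complement, and thrombomodulin restrains clotting. Kidneys had been transplanted into non-human primates and taken after 6 weeks (CD39/CD46/CD55/TBM) or 4 weeks (CD39/CD55), or had not been transplanted. Among the transplanted kidneys, genotype, weeks after transplantation and recipient cannot be told apart. The sources used here do not give the promoters of the transgenes, the number of pigs of each genotype or whether kidneys shared a pig.

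The series was designed to compare the genotypes for how well they limit rejection. Total counts were 10346863 and 11566041 in transplanted CD39/CD46/CD55/TBM and CD39/CD55 kidneys, against 13226372 and 14092905 in untransplanted CD39/CD46/CD55/TBM and CD39/CD55 kidneys. Levels below are in CPM, the standard scale of counts relative to library size, with library sizes scaled by edgeR's TMM factors. Between 1 library and 1 other, calls of higher or lower needed a difference of at least 2-fold and an exact 95% interval that excluded no change. Such a call covers counting error only and has no replicate check. The words rose and fell are kept for genes past an adjusted p of 0.05 in edgeR's quasi-likelihood test, with 2 transplanted against 2 untransplanted libraries, adjusted over all 18168 genes. The kidney label was checked against marker genes. Summed CPM of 9 proximal tubule markers was 3031 and 5876 in transplanted CD39/CD46/CD55/TBM and CD39/CD55 kidneys, against 12580 and 11160 in the untransplanted ones of those genotypes, and 7 of the 9 fell. In whole tissue, fewer cells of a type and less RNA per cell cannot be told apart.

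Collagen RNA made up a smaller share of the transplanted libraries in both genotypes. Collagen genes held 0.121% of counts in transplanted CD39/CD46/CD55/TBM kidney and 0.134% in transplanted CD39/CD55 kidney, against 0.134% (CD39/CD46/CD55/TBM) and 0.198% (CD39/CD55) in untransplanted kidneys. The untransplanted CD39/CD55 kidney stood above the other 3 libraries, which lay close together. Summed over the 40 genes, the log2 ratio of transplanted over untransplanted was -0.22 in CD39/CD46/CD55/TBM (95% counting interval -0.25 to -0.19) and -0.70 in CD39/CD55 (-0.73 to -0.68).

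The classes did not share this difference evenly. Fibrillar collagens summed to 182 CPM in transplanted CD39/CD46/CD55/TBM kidney and 252 CPM in transplanted CD39/CD55 kidney, against 350 CPM (CD39/CD46/CD55/TBM) and 620 CPM (CD39/CD55) in untransplanted kidneys. Both transplanted libraries lay below both untransplanted ones, and the log2 ratios were -0.94 in CD39/CD46/CD55/TBM (-1.02 to -0.87) and -1.30 in CD39/CD55 (-1.36 to -1.24). Without COL1A1, the gene with the most counts of the class, these ratios were -0.45 in CD39/CD46/CD55/TBM and -0.91 in CD39/CD55. Basement membrane collagens summed to 714 CPM in transplanted CD39/CD46/CD55/TBM kidney and 622 CPM in transplanted CD39/CD55 kidney, against 753 CPM (CD39/CD46/CD55/TBM) and 1085 CPM (CD39/CD55) in untransplanted kidneys. The log2 ratio was -0.08 in CD39/CD46/CD55/TBM (-0.12 to -0.03) and -0.80 in CD39/CD55 (-0.84 to -0.76), and in CD39/CD46/CD55/TBM it became 0.11 when COL4A4, whose counts are in doubt as described below, was left out. The other collagens summed to 312 CPM in transplanted CD39/CD46/CD55/TBM kidney and 376 CPM in transplanted CD39/CD55 kidney, against 303 CPM (CD39/CD46/CD55/TBM) and 332 CPM (CD39/CD55) in untransplanted kidneys. Their ratio in CD39/CD46/CD55/TBM, 0.04 on the log2 scale, had an interval that included no change (-0.03 to 0.11), and in CD39/CD55 it was 0.18 (0.12 to 0.24).

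As a share of all collagen counts, the fibrillar class took 15.1% and 20.2% in transplanted CD39/CD46/CD55/TBM and CD39/CD55 kidneys, against 24.9% and 30.5% in untransplanted CD39/CD46/CD55/TBM and CD39/CD55 kidneys. The basement membrane class held 59.2% in transplanted CD39/CD46/CD55/TBM kidney and 49.8% in transplanted CD39/CD55 kidney, against 53.6% (CD39/CD46/CD55/TBM) and 53.3% (CD39/CD55) in untransplanted kidneys. The smaller fibrillar share was thus common to both transplanted libraries. The basement membrane share moved in opposite directions, but it includes COL4A4, whose counts are in doubt as described below. COL4A1 and COL4A2 alone held 46.8% and 37.6% in transplanted CD39/CD46/CD55/TBM and CD39/CD55 kidneys. In untransplanted kidneys they held 32.8% (CD39/CD46/CD55/TBM) and 36.7% (CD39/CD55), so their share was higher after transplantation in each genotype. An exact permutation test of 2 libraries against 2 cannot give a two-sided p below 0.3333, so the sums are given as values and no model was fitted to them.

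**Figure D1:**
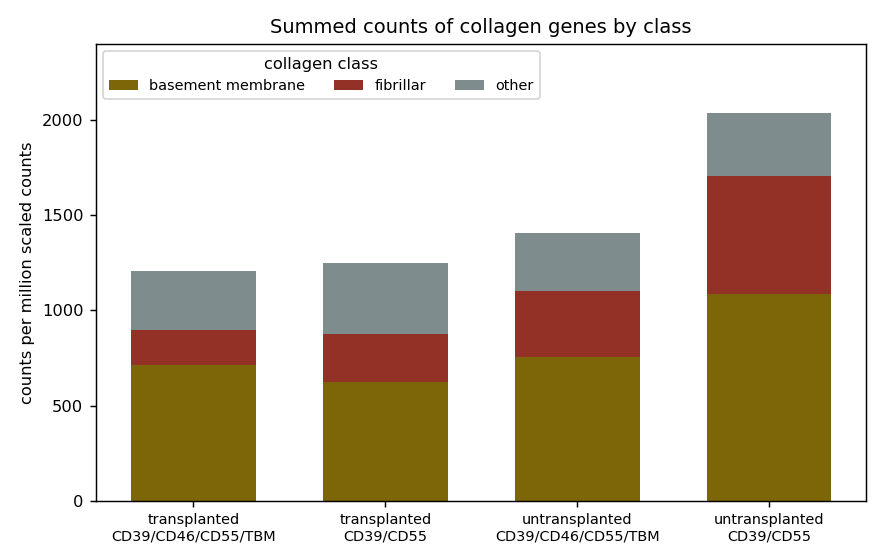
Stacked bars of summed counts of the fibrillar, basement membrane and other collagen genes in each of the 4 libraries, in CPM. The fibrillar part is 182 and 252 CPM in transplanted CD39/CD46/CD55/TBM and CD39/CD55 kidneys, against 350 and 620 CPM in the untransplanted ones, while the other collagens lie between 303 and 376 CPM in all 4 libraries.

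Gene by gene, few collagens passed the test over both genotypes. COL8A1 and COL17A1 rose, where 1.24% of all genes rose, and COL15A1 and COL4A4 fell, where 2.71% of all genes fell. At an unadjusted p below 0.05, 4 collagens were higher and 7 lower, where 8.99% of all genes were higher and 10.7% lower. The median log2 fold change of the 40 genes was -0.20, against 0.03 over all genes tested. By class the medians were -0.35 for fibrillar, -0.28 for basement membrane and 0.43 for other collagens. Both transplanted libraries lay above both untransplanted ones for 11 collagens and below them for 12, where 26.3% and 25.5% of all genes did so, which is close to the collagens' own counts.

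Within CD39/CD46/CD55/TBM, 7 collagens were called higher and 5 lower in the transplanted kidney, where 15.9% of all genes were called higher and 16.3% lower. Within CD39/CD55, 7 were called higher and 9 lower, where 13.2% and 13.7% of all genes were. COL2A1, COL8A1, COL17A1 and COL28A1 were called higher in both genotypes, where 5.88% of all genes were, and COL1A1, COL4A4, COL6A5 and COL15A1 were called lower in both, where 7.63% were. The median log2 ratio of the collagens was -0.04 in CD39/CD46/CD55/TBM and -0.05 in CD39/CD55, and genes with a library at 0 counts lie outside these medians on the same side when set at their bound.

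**Figure D2:**
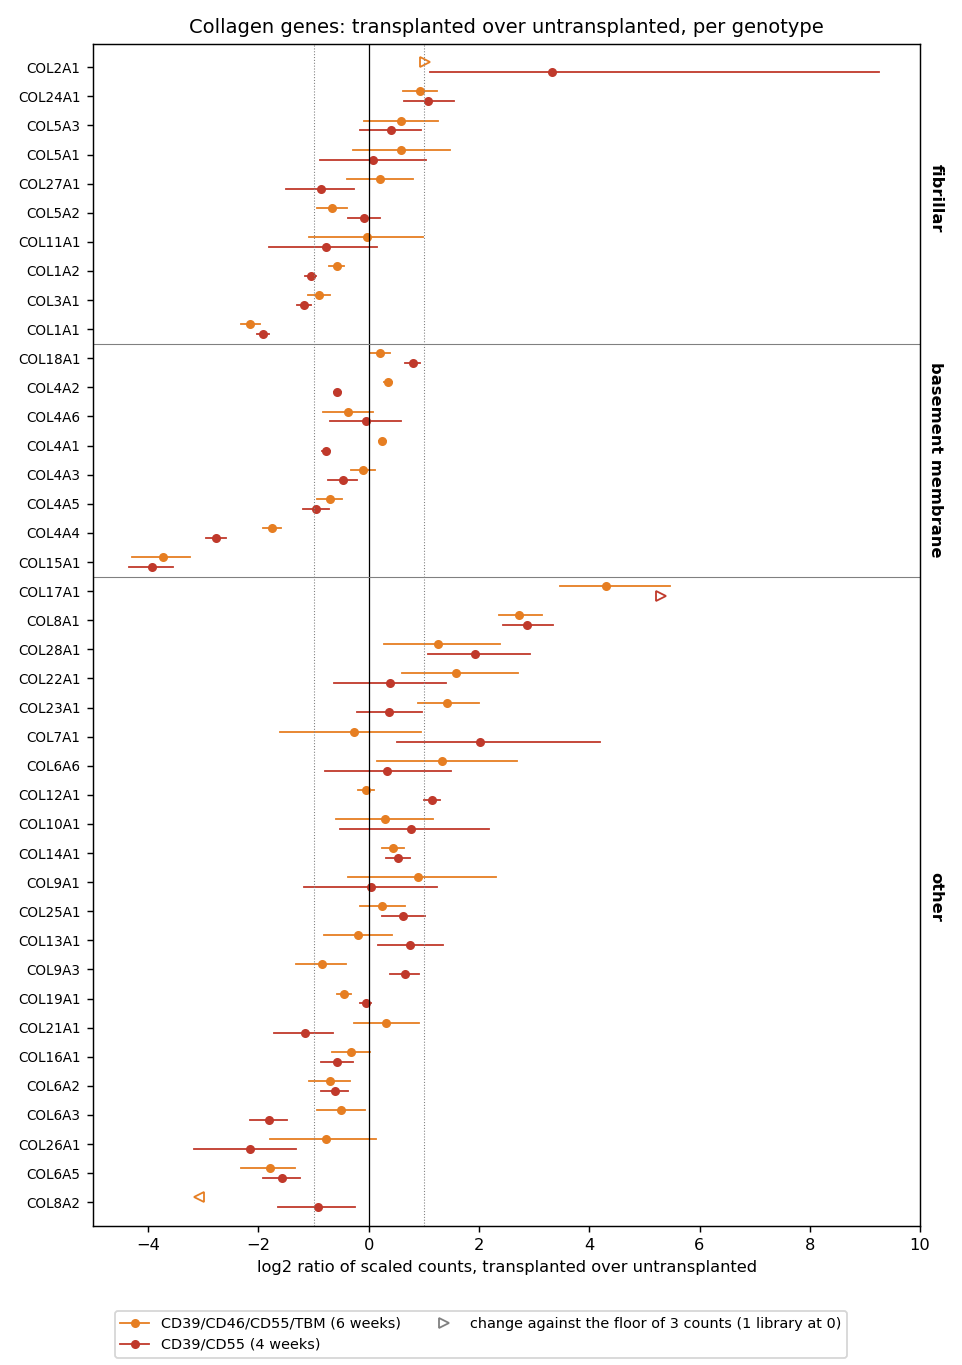
Log2 ratio of scaled counts, transplanted over untransplanted, for each of the 40 collagen genes in CD39/CD46/CD55/TBM (orange) and CD39/CD55 (red), grouped by class. Bars are exact 95% counting intervals, dotted lines mark 2-fold, and open triangles show the change against a floor of 3 counts where 1 library had 0; COL15A1 lies lowest among genes with a ratio in both genotypes (-3.73 and -3.93) and COL8A1 among the highest (2.73 and 2.87).

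Type I and type III collagen, the main fibre-forming collagens of interstitial tissue, were lower in the transplanted kidney of each genotype. COL1A1, which encodes the more abundant chain of type I collagen, had 32.9 CPM in transplanted CD39/CD46/CD55/TBM kidney and 76.5 CPM in transplanted CD39/CD55 kidney, against 146 CPM (CD39/CD46/CD55/TBM) and 289 CPM (CD39/CD55) in untransplanted kidneys. The states did not overlap, and the log2 ratios were -2.15 in CD39/CD46/CD55/TBM (-2.32 to -1.98) and -1.92 in CD39/CD55 (-2.02 to -1.82). Over both genotypes its log2 fold change was -1.99 with an SE of 0.53, and it missed the threshold (edgeR quasi-likelihood test, adjusted p = 0.0567). It passed in 6 of 11 alternative analyses, with adjusted p between 0.000168 and 0.278.

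COL1A2, the partner chain of COL1A1 in type I collagen, had 69.6 CPM in transplanted CD39/CD46/CD55/TBM kidney and 85.7 CPM in transplanted CD39/CD55 kidney, against 104 CPM (CD39/CD46/CD55/TBM) and 178 CPM (CD39/CD55) in untransplanted kidneys. Its states did not overlap either, but the differences were smaller than those of COL1A1, with log2 ratios of -0.58 in CD39/CD46/CD55/TBM (-0.72 to -0.45) and -1.05 in CD39/CD55 (-1.16 to -0.95). The log2 fold change over both genotypes was -0.86 (edgeR, adjusted p = 0.3002). Counts of COL1A1 per count of COL1A2 were therefore 0.472 and 0.893 in transplanted CD39/CD46/CD55/TBM and CD39/CD55 kidneys, against 1.40 and 1.63 in untransplanted CD39/CD46/CD55/TBM and CD39/CD55 kidneys. The 95% counting intervals of the transplanted libraries (0.414 to 0.538 and 0.818 to 0.976) lay below those of the untransplanted ones (1.30 to 1.499 and 1.55 to 1.71).

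COL3A1, the chain of type III collagen, had 27.9 CPM in transplanted CD39/CD46/CD55/TBM kidney and 53.0 CPM in transplanted CD39/CD55 kidney, against 52.2 CPM (CD39/CD46/CD55/TBM) and 120 CPM (CD39/CD55) in untransplanted kidneys. The states overlapped, since transplanted CD39/CD55 kidney matched untransplanted CD39/CD46/CD55/TBM kidney, and the log2 fold change of -1.09 did not pass (edgeR, adjusted p = 0.248). It passed in 2 of 11 alternative analyses, with genotype as a block (log2 fold change -1.04, edgeR, adjusted p = 0.0281) and without transplanted CD39/CD55 kidney (-1.62, adjusted p = 0.0395), and was -0.37 (adjusted p = 0.923) without untransplanted CD39/CD55 kidney. Relative to COL1A1, COL3A1 stood higher in transplanted libraries, at 0.850 (CD39/CD46/CD55/TBM) and 0.693 (CD39/CD55) counts per count of COL1A1, against 0.358 (CD39/CD46/CD55/TBM) and 0.414 (CD39/CD55) in untransplanted kidneys.

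The remaining fibrillar genes showed no common direction. Summed without COL1A1, COL1A2 and COL3A1, they had 51.4 CPM in transplanted CD39/CD46/CD55/TBM kidney and 37.0 CPM in transplanted CD39/CD55 kidney, against 47.3 CPM (CD39/CD46/CD55/TBM) and 33.7 CPM (CD39/CD55) in untransplanted kidneys, and both transplantation intervals included no change. COL24A1, a minor fibrillar collagen, had 21.7 CPM in transplanted CD39/CD46/CD55/TBM kidney and 9.86 CPM in transplanted CD39/CD55 kidney, against 11.4 CPM (CD39/CD46/CD55/TBM) and 4.66 CPM (CD39/CD55) in untransplanted kidneys. It was higher in each transplanted kidney than in the untransplanted kidney of its genotype, and its log2 fold change of 0.97 did not pass (edgeR, adjusted p = 0.348). COL5A1, COL5A2 and COL5A3, whose type V chains help to start fibrils and set their width, had log2 fold changes of 0.36, -0.41 and 0.48, none past the threshold. COL11A1 and COL27A1, known mainly from cartilage, had -0.42 and -0.29.

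COL2A1, the main fibrillar collagen of cartilage, had 5 and 13 counts in transplanted CD39/CD46/CD55/TBM and CD39/CD55 kidneys, against 0 and 1 in untransplanted CD39/CD46/CD55/TBM and CD39/CD55 kidneys. It was at least 2.04-fold higher in transplanted CD39/CD46/CD55/TBM kidney, taking the 3 counts that a count of 0 allows and the other count as it stands. With the error of both counts, the exact 95% lower limit of that log2 ratio was 0.16, close to no change. Its log2 ratio in CD39/CD55 was 3.32 (1.12 to 9.26). LOC110260776, which overlaps it, had 4 and 10 counts in transplanted CD39/CD46/CD55/TBM and CD39/CD55 kidneys and 0 in both untransplanted ones, so its reads and those of COL2A1 cannot be told apart.

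Type VI collagen, which forms beaded filaments around cells, was summed over COL6A2, COL6A3, COL6A5 and COL6A6. The sum was 22.2 CPM in transplanted CD39/CD46/CD55/TBM kidney and 34.1 CPM in transplanted CD39/CD55 kidney, against 40.4 CPM (CD39/CD46/CD55/TBM) and 78.5 CPM (CD39/CD55) in untransplanted kidneys. Both transplanted libraries lay below both untransplanted ones. COL6A5 had 4.25 CPM in transplanted CD39/CD46/CD55/TBM kidney and 8.24 CPM in transplanted CD39/CD55 kidney, against 14.9 CPM (CD39/CD46/CD55/TBM) and 24.6 CPM (CD39/CD55) in untransplanted kidneys. Its states did not overlap. It was called lower in both genotypes, at log2 ratios of -1.80 (-2.32 to -1.33) in CD39/CD46/CD55/TBM and -1.57 (-1.91 to -1.26) in CD39/CD55. The fold change over both genotypes, -1.66 on the log2 scale with an SE of 0.49, missed the threshold (edgeR, adjusted p = 0.0839) and passed in 5 of 11 alternatives.

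COL6A3 had 7.15 and 7.68 CPM in transplanted CD39/CD46/CD55/TBM and CD39/CD55 kidneys, against 10.1 and 27.0 CPM in untransplanted CD39/CD46/CD55/TBM and CD39/CD55 kidneys. The untransplanted CD39/CD55 kidney stood apart from the other 3. COL6A2 had log2 ratios of -0.70 in CD39/CD46/CD55/TBM and -0.62 in CD39/CD55, and COL6A6, with at most 19 counts in a library, had 1.33 and 0.34.

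**Figure D3:**
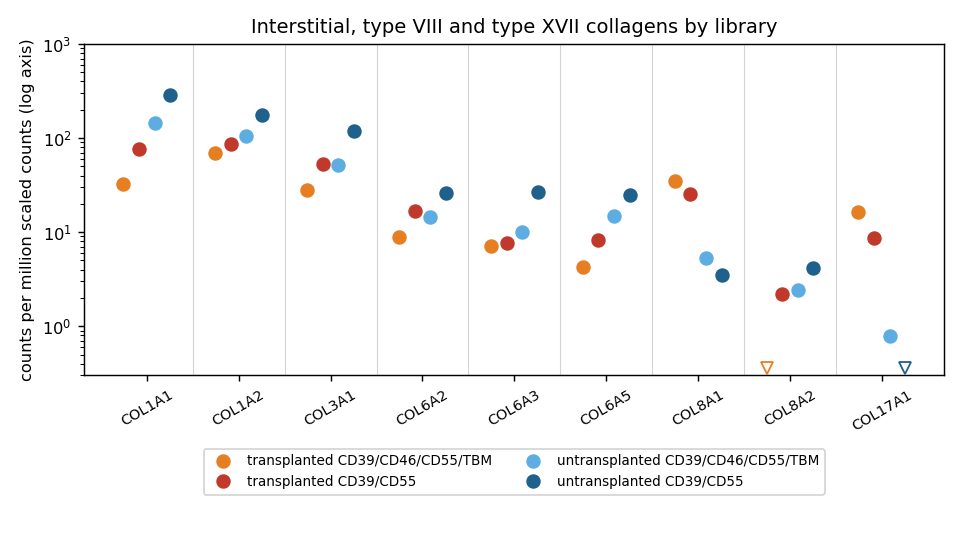
Levels of type I, III, VI, VIII and XVII collagen genes in each library, in CPM on a log axis, with open triangles at the lower edge for a count of 0. COL1A1 and COL6A5 are lower in both transplanted kidneys (orange, red) than in both untransplanted ones (light blue, dark blue), whereas COL8A1 and COL17A1 are higher.

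Markers of fibroblasts and mural cells, cells that make interstitial collagens, are given beside these values. Of 15 such markers, POSTN rose, ACTA2 fell and none was at 0 in any library. In CD39/CD46/CD55/TBM, 3 were called higher and 5 lower after transplantation, where 15.9% and 16.3% of all genes were. In CD39/CD55, 2 were called higher and 5 lower, where 13.2% and 13.7% were. PDGFRA and PDGFRB were higher in each genotype, whereas CNN1 and LUM were lower. The 15 markers had a median log2 ratio of -0.62 in CD39/CD46/CD55/TBM and -0.51 in CD39/CD55. Their summed level was 294 CPM in transplanted CD39/CD46/CD55/TBM kidney and 456 CPM in transplanted CD39/CD55 kidney, against 348 CPM (CD39/CD46/CD55/TBM) and 474 CPM (CD39/CD55) in untransplanted kidneys, so the states overlapped. Their part in the lower fibrillar and type VI counts was not tested.

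COL15A1 had the largest fall of any collagen in the test over both genotypes. It encodes type XV collagen, a proteoglycan-like collagen that ties basement membranes of vessels and muscle to the fibres around them, and lies at chr1:240718128-240829188 (Sscrofa11.1). It had 3.19 CPM, or 33 counts, in transplanted CD39/CD46/CD55/TBM kidney and 4.53 CPM, or 56 counts, in transplanted CD39/CD55 kidney. In untransplanted kidneys it had 42.8 CPM, or 542 counts (CD39/CD46/CD55/TBM), and 69.4 CPM, or 953 counts (CD39/CD55). The states were far apart, with log2 ratios of -3.73 in CD39/CD46/CD55/TBM (-4.30 to -3.24) and -3.93 in CD39/CD55 (-4.35 to -3.55). The fold change over both genotypes was -3.86 on the log2 scale with an SE of 0.48 (edgeR, adjusted p = 0.00181), and adjusted p lay between 7.33e-12 and 0.0035 in 11 alternatives.

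COL18A1, the other member of this subclass, whose cleaved end is endostatin, did not share that fall. It had 46.3 CPM in transplanted CD39/CD46/CD55/TBM kidney and 87.9 CPM in transplanted CD39/CD55 kidney, against 40.2 CPM (CD39/CD46/CD55/TBM) and 50.6 CPM (CD39/CD55) in untransplanted kidneys. The transplanted CD39/CD55 kidney was above the other 3, and the log2 fold change of 0.56 did not pass (edgeR, adjusted p = 0.504). Of 12 endothelial markers, TEK fell, none rose and none was at 0. Their summed level was 235 CPM in transplanted CD39/CD46/CD55/TBM kidney and 244 CPM in transplanted CD39/CD55 kidney, against 355 CPM (CD39/CD46/CD55/TBM) and 394 CPM (CD39/CD55) in untransplanted kidneys, and its part in the fall of COL15A1 was not tested.

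COL4A1 and COL4A2, the chains of the widespread type IV network, differed between the genotypes in direction. COL4A1 (chr11:76858332-76997409) had 297 CPM in transplanted CD39/CD46/CD55/TBM kidney and 213 CPM in transplanted CD39/CD55 kidney, against 250 CPM (CD39/CD46/CD55/TBM) and 365 CPM (CD39/CD55) in untransplanted kidneys. COL4A2 had 268 CPM in transplanted CD39/CD46/CD55/TBM kidney and 257 CPM in transplanted CD39/CD55 kidney, against 211 CPM (CD39/CD46/CD55/TBM) and 383 CPM (CD39/CD55) in untransplanted kidneys. Each was higher in transplanted CD39/CD46/CD55/TBM kidney than in its untransplanted counterpart, with log2 ratios of 0.25 for COL4A1 (0.18 to 0.32) and 0.35 for COL4A2 (0.27 to 0.42). In CD39/CD55 each was lower after transplantation, with -0.78 for COL4A1 (-0.85 to -0.71) and -0.57 for COL4A2 (-0.64 to -0.51).

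The transplantation ratio in CD39/CD46/CD55/TBM over that in CD39/CD55 was thus 1.03 on the log2 scale for COL4A1 (0.93 to 1.13) and 0.92 for COL4A2 (0.82 to 1.02), with 1 library per group and no test across samples. Over both genotypes neither gene passed (edgeR, log2 fold change -0.27, adjusted p = 0.784 for COL4A1; -0.18, adjusted p = 0.863 for COL4A2). The genes lie head to head and their annotated spans share 525 bp. The count of COL4A1 per count of COL4A2 was 1.11 and 0.829 in transplanted CD39/CD46/CD55/TBM and CD39/CD55 kidneys, against 1.19 and 0.954 in untransplanted CD39/CD46/CD55/TBM and CD39/CD55 kidneys. That ratio was higher in CD39/CD46/CD55/TBM than in CD39/CD55 in each state.

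COL4A4, a chain of the glomerular type IV network, fell while its partner COL4A3 did not pass. COL4A4 (chr15:128472228-128612302) had 37.7 CPM in transplanted CD39/CD46/CD55/TBM kidney and 23.0 CPM in transplanted CD39/CD55 kidney, against 128 CPM (CD39/CD46/CD55/TBM) and 157 CPM (CD39/CD55) in untransplanted kidneys. The states did not overlap, and its log2 fold change was -2.23 with an SE of 0.45 (edgeR, adjusted p = 0.0171, at most 0.0220 in 11 alternatives). COL4A3 had 30.3 CPM in transplanted CD39/CD46/CD55/TBM kidney and 16.8 CPM in transplanted CD39/CD55 kidney, against 32.6 CPM (CD39/CD46/CD55/TBM) and 23.4 CPM (CD39/CD55) in untransplanted kidneys. Its states overlapped and its log2 fold change was -0.25 (edgeR, adjusted p = 0.795).

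The fall of COL4A4 cannot be told apart from that of RHBDD1, a gene of another family, a rhomboid protease, whose annotated span covers 26924 bp of COL4A4 (chr15:128472228-128499151). COL4A4 had 390 and 285 counts in transplanted CD39/CD46/CD55/TBM and CD39/CD55 kidneys, against 1615 and 2161 in untransplanted CD39/CD46/CD55/TBM and CD39/CD55 kidneys. RHBDD1 had 574 and 433 counts in transplanted CD39/CD46/CD55/TBM and CD39/CD55 kidneys, against 1653 and 2235 in untransplanted CD39/CD46/CD55/TBM and CD39/CD55 kidneys, and it fell as well (edgeR, log2 fold change -1.70, adjusted p = 0.0499). RHBDD1 stayed within 1.02 to 1.52 times the count of COL4A4 in every library. Counts of COL4A3 per count of COL4A4 moved accordingly, with 0.805 and 0.730 in transplanted CD39/CD46/CD55/TBM and CD39/CD55 kidneys, against 0.255 and 0.149 in untransplanted CD39/CD46/CD55/TBM and CD39/CD55 kidneys.

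COL4A5, the X-linked partner of COL4A3 and COL4A4, had 24.5 CPM in transplanted CD39/CD46/CD55/TBM kidney and 16.9 CPM in transplanted CD39/CD55 kidney, against 40.2 CPM (CD39/CD46/CD55/TBM) and 32.8 CPM (CD39/CD55) in untransplanted kidneys. The states did not overlap, and the log2 fold change of -0.82 did not pass (edgeR, adjusted p = 0.298). COL4A6, which pairs with COL4A5 in the capsule of the glomerulus and in some tubules, had 6.77 CPM in transplanted CD39/CD46/CD55/TBM kidney and 3.23 CPM in transplanted CD39/CD55 kidney, against 8.77 CPM (CD39/CD46/CD55/TBM) and 3.35 CPM (CD39/CD55) in untransplanted kidneys. It followed genotype rather than state, with the CD39/CD46/CD55/TBM kidney higher in each state.

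COL4A3, COL4A5 and COL4A6 together had 61.7 CPM in transplanted CD39/CD46/CD55/TBM kidney and 36.9 CPM in transplanted CD39/CD55 kidney, against 81.5 CPM (CD39/CD46/CD55/TBM) and 59.5 CPM (CD39/CD55) in untransplanted kidneys. Of 10 podocyte markers, NPHS1 fell, none rose and none was at 0. Their summed level was 469 CPM in transplanted CD39/CD46/CD55/TBM kidney and 297 CPM in transplanted CD39/CD55 kidney, against 497 CPM (CD39/CD46/CD55/TBM) and 530.3 CPM (CD39/CD55) in untransplanted kidneys. Their median log2 ratio after transplantation was -0.61 in CD39/CD46/CD55/TBM and -1.17 in CD39/CD55. CD2AP, with 1977 counts in transplanted and 1236 in untransplanted CD39/CD46/CD55/TBM kidney, and PLA2R1 were higher in each genotype. The part of the podocyte markers in the levels of the glomerular chains was not tested.

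**Figure D4:**
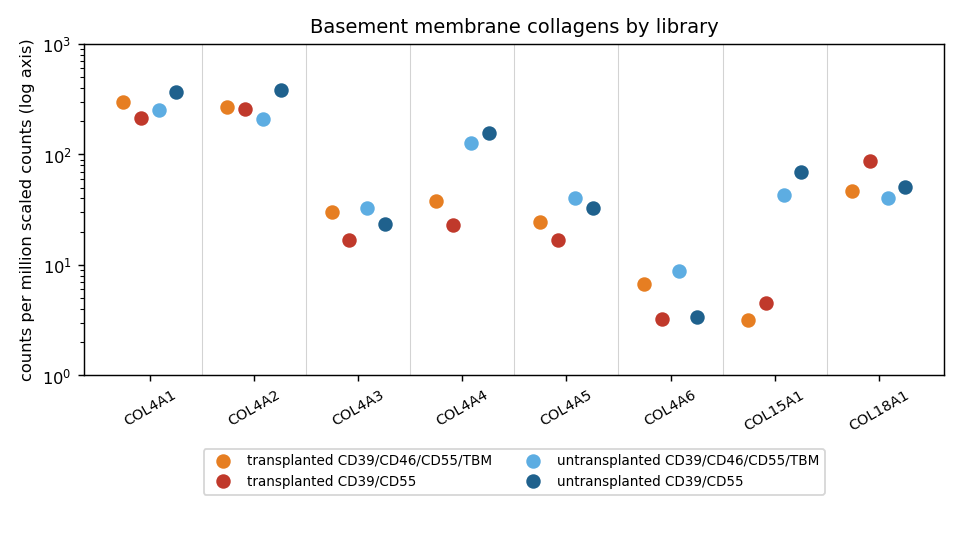
Levels of the 8 basement membrane collagen genes in each library, in CPM on a log axis. COL15A1 and COL4A4 are lower in both transplanted kidneys than in both untransplanted ones, COL4A1 and COL4A2 are highest in untransplanted CD39/CD55 kidney, and COL4A6 is higher in CD39/CD46/CD55/TBM in each state.

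COL8A1 rose in transplanted kidney. It encodes a chain of type VIII collagen, a short-chain collagen that forms open networks beneath endothelium and is also made by vascular smooth muscle, and lies at chr13:159216138-159374718. It had 35.3 CPM, or 365 counts, in transplanted CD39/CD46/CD55/TBM kidney and 25.7 CPM, or 318 counts, in transplanted CD39/CD55 kidney. In untransplanted kidneys it had 5.30 CPM, or 67 counts (CD39/CD46/CD55/TBM), and 3.50 CPM, or 48 counts (CD39/CD55). The states did not overlap, the log2 ratios were 2.73 in CD39/CD46/CD55/TBM (2.36 to 3.13) and 2.87 in CD39/CD55 (2.44 to 3.35), and the log2 fold change was 2.79 with an SE of 0.47 (edgeR, adjusted p = 0.00707, between 3.79e-06 and 0.0150 in 11 alternatives).

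COL8A2, the other chain of type VIII collagen, did not follow it. COL8A2 had 0 counts in transplanted CD39/CD46/CD55/TBM kidney and 27 in transplanted CD39/CD55 kidney, against 31 (CD39/CD46/CD55/TBM) and 57 (CD39/CD55) in untransplanted kidneys. In CD39/CD46/CD55/TBM it was at least 8.45-fold lower after transplantation, taking 3 counts for the library at 0 and the other count as it stands. With the error of both counts, the exact 95% limit nearest to no change was -2.69 on the log2 scale. In CD39/CD55 its log2 ratio was -0.91 (-1.65 to -0.24). Over both genotypes it did not pass (edgeR, adjusted p = 0.417). Per count of COL8A2 there were at least 122 counts of COL8A1 in transplanted CD39/CD46/CD55/TBM kidney, by the same floor of 3 counts, and 11.8 in transplanted CD39/CD55 kidney, against 2.16 (CD39/CD46/CD55/TBM) and 0.842 (CD39/CD55) in untransplanted kidneys.

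COL17A1 also rose. It encodes a transmembrane collagen of hemidesmosomes, the junctions that fix epithelial cells to their basement membrane, and is best known from skin. It had 170 counts in transplanted CD39/CD46/CD55/TBM kidney and 106 in transplanted CD39/CD55 kidney, against 10 (CD39/CD46/CD55/TBM) and 0 (CD39/CD55) in untransplanted kidneys. The log2 ratio was 4.31 in CD39/CD46/CD55/TBM (3.46 to 5.46), and in CD39/CD55 the transplanted kidney was at least 39.2-fold higher, taking 3 counts for the library at 0 and the other count as it stands. With the error of both counts, the exact 95% lower limit in CD39/CD55 was 4.97 on the log2 scale. The fitted log2 fold change was 4.98 with an SE of 0.91 (edgeR, adjusted p = 0.0116). That size depends on the untransplanted libraries, since it was 3.96 without the CD39/CD55 one, which had 0 counts, and 10.25 without the CD39/CD46/CD55/TBM one. It passed in 10 of 11 alternatives and not in DESeq2's Wald test (adjusted p = 0.146).

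The 3 other transmembrane collagens did not pass. COL23A1 had 8.99 and 4.53 CPM in transplanted CD39/CD46/CD55/TBM and CD39/CD55 kidneys, against 3.32 and 3.50 CPM in untransplanted CD39/CD46/CD55/TBM and CD39/CD55 kidneys, and was called higher in CD39/CD46/CD55/TBM at a log2 ratio of 1.43 (0.90 to 1.999). COL25A1 and COL13A1 had log2 fold changes over both genotypes of 0.43 and 0.27. COL7A1, which forms the anchoring fibrils beneath hemidesmosomes, had 10 and 16 counts in transplanted CD39/CD46/CD55/TBM and CD39/CD55 kidneys, against 15 and 4 in untransplanted CD39/CD46/CD55/TBM and CD39/CD55 kidneys. COL10A1, the short-chain collagen of growth cartilage, had 24 and 14 counts in transplanted CD39/CD46/CD55/TBM and CD39/CD55 kidneys, against 24 and 9 in untransplanted CD39/CD46/CD55/TBM and CD39/CD55 kidneys.

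Fibril-associated collagens sit on the surface of fibrils or link them to other matrix, and none of the 8 measured passed the test over both genotypes. COL19A1, which had the most counts of the non-fibrillar, non-basement membrane genes, had 76.9 CPM in transplanted CD39/CD46/CD55/TBM kidney and 113 CPM in transplanted CD39/CD55 kidney, against 105 CPM (CD39/CD46/CD55/TBM) and 118 CPM (CD39/CD55) in untransplanted kidneys. COL12A1, which coats type I fibrils, had 62.1 CPM in transplanted CD39/CD46/CD55/TBM kidney and 88.9 CPM in transplanted CD39/CD55 kidney, against 64.3 CPM (CD39/CD46/CD55/TBM) and 40.1 CPM (CD39/CD55) in untransplanted kidneys. It was called higher after transplantation in CD39/CD55, at a log2 ratio of 1.149 (1.001 to 1.300), while in CD39/CD46/CD55/TBM the interval included no change (-0.20 to 0.10).

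COL14A1, another fibril-coating collagen, had 42.1 and 32.7 CPM in transplanted CD39/CD46/CD55/TBM and CD39/CD55 kidneys, against 31.2 and 22.6 CPM in untransplanted CD39/CD46/CD55/TBM and CD39/CD55 kidneys. Both transplanted libraries were above both untransplanted ones, by less than 2-fold in each genotype. COL16A1 was lower in both transplanted libraries, with log2 ratios of -0.32 in CD39/CD46/CD55/TBM (-0.67 to 0.02) and -0.58 in CD39/CD55 (-0.87 to -0.29). COL21A1 had 4.93 and 3.39 CPM in transplanted CD39/CD46/CD55/TBM and CD39/CD55 kidneys, against 3.95 and 7.65 CPM in untransplanted CD39/CD46/CD55/TBM and CD39/CD55 kidneys, untransplanted CD39/CD55 kidney being the highest. COL22A1 was called higher in CD39/CD46/CD55/TBM only, at a log2 ratio of 1.58 (0.60 to 2.71), and COL9A1 had between 9 and 14 counts in every library.

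COL9A3, a chain of the cartilage collagen type IX, had 62 counts in transplanted CD39/CD46/CD55/TBM kidney and 297 in transplanted CD39/CD55 kidney, against 137 (CD39/CD46/CD55/TBM) and 210 (CD39/CD55) in untransplanted kidneys. It was lower after transplantation in CD39/CD46/CD55/TBM, at a log2 ratio of -0.85 (-1.31 to -0.41), and higher in CD39/CD55, at 0.65 (0.39 to 0.91). TCFL5, a transcription factor gene whose span overlaps COL9A3 by 323 bp, had 107 and 417 counts in transplanted CD39/CD46/CD55/TBM and CD39/CD55 kidneys, against 210 and 240 in untransplanted CD39/CD46/CD55/TBM and CD39/CD55 kidneys.

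Of the last members, COL28A1 had 26 and 49 counts in transplanted CD39/CD46/CD55/TBM and CD39/CD55 kidneys, against 13 and 14 in untransplanted CD39/CD46/CD55/TBM and CD39/CD55 kidneys. It was called higher in both genotypes and did not pass over both (edgeR, log2 fold change 1.65, adjusted p = 0.189). LOC110255476, which shares 128337 bp with it, had 33 and 50 counts in transplanted CD39/CD46/CD55/TBM and CD39/CD55 kidneys, against 13 and 14 in untransplanted CD39/CD46/CD55/TBM and CD39/CD55 kidneys. COL26A1 had 15 and 13 counts in transplanted CD39/CD46/CD55/TBM and CD39/CD55 kidneys, against 32 and 66 in untransplanted CD39/CD46/CD55/TBM and CD39/CD55 kidneys, and was called lower in CD39/CD55 at a log2 ratio of -2.15 (-3.18 to -1.32).

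The spans of 17 collagens overlap another annotated gene, and for COL4A4, COL9A3, COL28A1 and COL2A1 the overlapping gene, of another family, had 0.5 to 2 times the collagen's count wherever the collagen had 10 counts or more. Overlaps between collagens were left out of this count. COL4A1 and COL4A2, which share 525 bp, had counts within that range of each other in every library, and COL4A3 and COL4A4 share 663 bp. The sources used here do not say whether the counting used strand. Reads of the overlapping genes therefore cannot be told apart from those of the 4 collagens, nor reads in the stretches that collagens share. The range of 0.5 to 2 times does not cover COL10A1, which lies wholly within the span of NT5DC1. NT5DC1 had 342 and 249 counts in transplanted CD39/CD46/CD55/TBM and CD39/CD55 kidneys, against 682 and 520 in the untransplanted ones. The few counts of COL10A1 cannot be told apart from reads of NT5DC1 either.

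**Figure D5:**
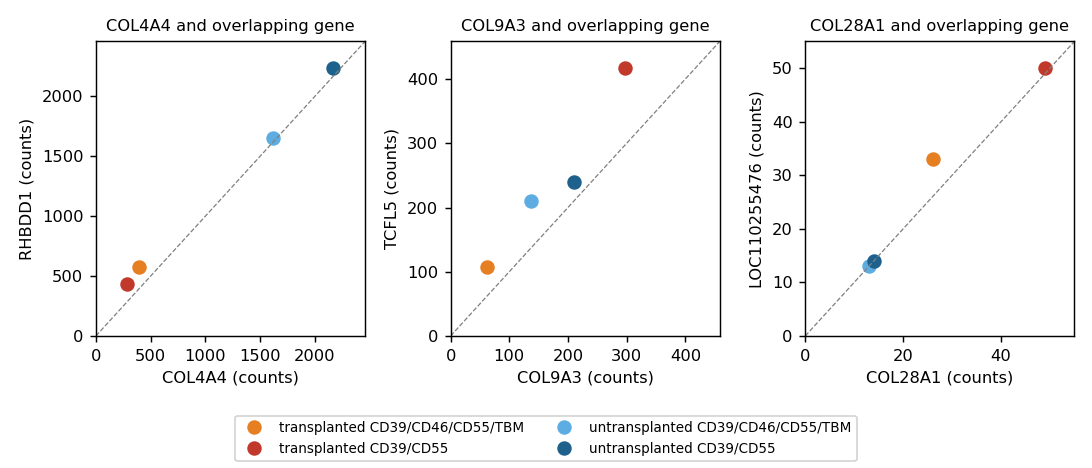
Counts of COL4A4, COL9A3 and COL28A1 (horizontal axes) against counts of the gene that overlaps each (vertical axes) in the 4 libraries, with a dashed line at equal counts. All points lie on or above the line, with 390 and 285 counts of COL4A4 beside 574 and 433 of RHBDD1 in transplanted kidneys, against 1615 and 2161 beside 1653 and 2235 in untransplanted ones.

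Between the genotypes, no collagen passed the test over both states. Neither did any of the 18168 genes (0% called), with 190 genes higher and 259 lower at an unadjusted p below 0.05, none of them a collagen, and DESeq2's Wald test called 12 genes higher and 5 lower, again no collagen. The values that follow compare 1 library with 1 library.

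Among transplanted kidneys, COL24A1, COL4A6 and COL10A1 were called higher in CD39/CD46/CD55/TBM than in CD39/CD55, where 11.0% of all genes were, and COL1A1, COL8A2 and COL9A3 were called lower, where 11.0% were. COL1A1 had a log2 ratio of -1.22 (-1.40 to -1.04) in this comparison. Among untransplanted kidneys, COL24A1, COL4A6, COL10A1, COL7A1 and COL17A1 were called higher in CD39/CD46/CD55/TBM, where 8.17% of all genes were, and COL3A1 and COL6A3 were called lower, where 7.88% were. COL3A1 had a log2 ratio of -1.20 (-1.33 to -1.07) there, and COL6A3 had -1.41 (-1.72 to -1.12).

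COL24A1, COL4A6 and COL10A1 were thus called higher in CD39/CD46/CD55/TBM in each state. For COL24A1 the log2 ratios were 1.13 (0.81 to 1.46) among transplanted and 1.28 (0.85 to 1.74) among untransplanted kidneys, and for COL4A6 they were 1.06 (0.48 to 1.66) and 1.38 (0.88 to 1.92) in the same comparisons. COL10A1, with at most 24 counts in a library and a span within NT5DC1 as described above, had 1.01 (0.03 to 2.10) and 1.48 (0.38 to 2.82). With library size unscaled by TMM, the calls of COL4A6 and COL10A1 among transplanted kidneys were lost. All fibrillar collagens summed gave -0.47 (-0.56 to -0.39) among transplanted and -0.83 (-0.88 to -0.77) among untransplanted kidneys. The fibrillar sum was therefore lower in CD39/CD46/CD55/TBM than in CD39/CD55 without transplantation as well, with 1 library on each side.

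The transplantation ratio differed between the genotypes past the call for 11 collagens. It was higher in CD39/CD46/CD55/TBM for COL4A1, COL4A4, COL27A1, COL6A3, COL26A1, COL23A1 and COL21A1, where 10.4% of all genes were, and lower for COL7A1, COL8A2, COL12A1 and COL9A3, where 11.5% were. The 5 with the largest difference were COL8A2, COL7A1, COL9A3, COL21A1 and COL26A1, at -4.77 (-8.86 to -0.69), -2.30 (-4.18 to -0.41), -1.496 (-1.997 to -0.995), 1.48 (0.72 to 2.24) and 1.37 (0.16 to 2.59) on the log2 scale. The size for COL8A2 comes from the prior count of 0.5 given to a library at 0. It was -2.88 with a prior count of 2 and -2.19 at the floor of 3 counts, which is smaller than the difference of COL7A1. COL7A1 had 4 counts in 1 of the libraries. Without TMM scaling the calls of COL4A1, COL4A4, COL27A1 and COL23A1, all close to 2-fold, were lost and COL13A1 was added.

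Genes that make, process and bind collagen were read from lists chosen with earlier results of these data known. Of 22 genes for chaperones and modifying enzymes, none rose or fell, and their median log2 fold change was -0.28. Between library pairs, 2 were called higher and 3 lower after transplantation in CD39/CD46/CD55/TBM, and 0 higher and 7 lower in CD39/CD55. Of all genes, 15.9% were called higher and 16.3% lower in CD39/CD46/CD55/TBM, and 13.2% and 13.7% in CD39/CD55. P4HB, a subunit of the prolyl hydroxylase that stabilises the triple helix, had 2552 and 4130 counts in transplanted CD39/CD46/CD55/TBM and CD39/CD55 kidneys, against 2135 and 4689 in untransplanted CD39/CD46/CD55/TBM and CD39/CD55 kidneys. P3H2, a prolyl 3-hydroxylase of type IV collagen, had a log2 fold change of -0.79 (edgeR, adjusted p = 0.330). SERPINH1, the collagen-specific chaperone, named after its values were seen, had 549 and 701 counts in transplanted CD39/CD46/CD55/TBM and CD39/CD55 kidneys, against 2275 and 2089 in untransplanted CD39/CD46/CD55/TBM and CD39/CD55 kidneys. Its log2 fold change of -1.60 missed the threshold (edgeR, adjusted p = 0.0531, between 0.00173 and 0.153 in the alternatives). P4HA2 and FKBP14, also named after their values were seen, had -1.60 and -1.59 (edgeR, adjusted p = 0.0529 and 0.0604). PLOD2, of the same list, went the other way, at 1.53 (edgeR, adjusted p = 0.105).

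Of 15 genes for procollagen processing and crosslinking, none rose or fell, with a median of -0.10. PCOLCE, which enhances removal of the procollagen tail, had a log2 fold change of -0.93, and ADAMTS3, a procollagen protease, had 0.46. Of 8 measured collagen receptors none rose or fell, with a median of 0.02. ITGB1, the integrin subunit shared by the collagen-binding integrins, and its partner ITGA1 had log2 fold changes of 0.01 and -0.83.

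Of 15 proteoglycans and glycoproteins that bind fibrils, POSTN rose and PRELP and OGN fell, with a median of -0.04. POSTN, a matricellular protein that binds type I collagen, had 63 and 131 counts in transplanted CD39/CD46/CD55/TBM and CD39/CD55 kidneys, against 20 and 7 in untransplanted CD39/CD46/CD55/TBM and CD39/CD55 kidneys (edgeR, log2 fold change 2.995, SE 0.65, adjusted p = 0.0241, up to 0.0796 in the alternatives). PRELP, which joins basement membrane to fibres, had 50 and 92 counts in transplanted CD39/CD46/CD55/TBM and CD39/CD55 kidneys, against 544 and 552 in untransplanted CD39/CD46/CD55/TBM and CD39/CD55 kidneys (edgeR, log2 fold change -2.76, SE 0.45, adjusted p = 0.00611). OGN, a small leucine-rich proteoglycan, had a log2 fold change of -1.85 (edgeR, adjusted p = 0.0364, up to 0.142 in the alternatives). THBS1 and DCN, the genes of this list with the most counts, did not pass, at -0.65 and -0.04.

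Of 19 other basement membrane genes, TINAG fell and none rose, with a median of -0.14. TINAG, a glycoprotein of tubular basement membrane, had 521 and 860 counts in transplanted CD39/CD46/CD55/TBM and CD39/CD55 kidneys, against 4934 and 9964 in untransplanted CD39/CD46/CD55/TBM and CD39/CD55 kidneys (edgeR, log2 fold change -3.22, SE 0.52, adjusted p = 0.00616). The laminin chain LAMB1 had a log2 fold change of 0.09. Of 19 measured genes of TGF-beta and fibroblast growth signalling, pathways known to drive collagen synthesis, none rose or fell, with a median of 0.06, and TGFBR2 and SMAD4 had 0.23 and 0.51.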

How the data were processed

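RNA of pig kidney was measured in 4 libraries, 1 per group. Per the labels' protocols, a Lexogen Quant-Seq kit was used on total RNA from a phenol and chloroform extraction. That name usually means sequencing of 3' ends, and which part of a transcript was read is not settled, so genes were not ranked by level. The authors deposited raw whole-number counts per gene without normalization. Per the submitters' processing notes, Bowtie2, bedtools and the build Sscrofa11.1 were used; the sources used here do not give versions, strand use, multi-mapping or the treatment of primate reads.

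Each table had 26965 lines; lines of 81 repeated symbols were summed, none a collagen. Coordinates are RefSeq's for Sscrofa11.1. A gene was kept if any library had 10 counts of it or more. edgeR 4.0.16 (R 4.3.3) gave TMM factors and the quasi-likelihood test (2 residual degrees of freedom), Benjamini-Hochberg adjusted over all 18168 genes. The SE is the log2 fold change over the square root of F. On each side the pair of libraries differed in genotype or state, and p-values measure the spread between these libraries only, which may be technical. Library pairs were compared by the log2 ratio of scaled counts (prior count 0.5) with an exact 95% conditional binomial (Clopper-Pearson) interval, and differences of ratios had 95% Wald intervals. Intervals and the floor of 3 counts cover counting error only. Alternatives used DESeq2 1.42.0, limma 3.58.1 (voom), other scalings, filters, blocks and prior counts, and left out each library. Scripts were tested on simulated counts.

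Genes given in full were those past an edgeR threshold, those called alike in both genotypes, type I, III and IV chains, the member with the most counts in each class, the 5 largest differences of ratios and those nearest the count minimum; in other lists, genes past a threshold and the 2 with the most counts. Members and lists were chosen with earlier results of these data known. A further gene of the podocyte marker list is not reported here, and its counts are left out of that list's sum.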

Additional observations from a re-analysis of the deposited data

Results flagged for a closer look

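For 3 collagens, the kidney of one genotype was higher and that of the other lower after transplantation, with both counting intervals clear of no change. The transplantation ratio in CD39/CD46/CD55/TBM minus that in CD39/CD55, on the log2 scale, was 1.03 for COL4A1 and 0.92 for COL4A2, which were higher after transplantation in CD39/CD46/CD55/TBM and lower in CD39/CD55. It was -1.496 for COL9A3, which was lower after transplantation in CD39/CD46/CD55/TBM and higher in CD39/CD55, and whose counts followed those of TCFL5. For CD39/CD46/CD55/TBM over CD39/CD55, COL4A2 had a log2 ratio of 0.06 (-0.01 to 0.14) among transplanted and -0.86 (-0.93 to -0.79) among untransplanted kidneys. COL4A1 had 0.48 and -0.54, and COL9A3 had -1.99 and -0.50, in the same comparisons. The difference of COL4A2 thus lay mostly between the untransplanted kidneys. With 1 library per group none of these differences was tested across samples. Among the transplanted kidneys, genotype, weeks after transplantation and recipient cannot be told apart.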

How the results depend on the processing

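The count of collagens that fell was 2 with TMM or DESeq2 size factors, with library size alone and with 10 counts required in 2 libraries, and 3 with limma voom. It was 4 with DESeq2's Wald test and with no filter, 5 with genotype as a block, which pairs the libraries of each genotype, and 1 without the collagens whose counts track an overlapping gene, an analysis added after seeing the data. Leaving out each library in turn gave 2 to 6, with 6 when transplanted CD39/CD55 kidney and 5 when untransplanted CD39/CD46/CD55/TBM kidney was left out. COL1A1 and COL6A5 were among those added in each setting with 4 or more, COL3A1 with the block and without transplanted CD39/CD55 kidney, COL8A2 without that kidney too and COL6A3 without untransplanted CD39/CD46/CD55/TBM kidney. The count that rose was 1 with the Wald test, which lost COL17A1, and 2 otherwise. Over all genes, 225 rose and 493 fell, against 431 and 865 with the Wald test, 1124 and 1681 with the block, 543 and 1035 with no filter, 1055 and 1374 when transplanted CD39/CD55 kidney was left out, and 371 rises when untransplanted CD39/CD46/CD55/TBM kidney was. Between genotypes, state as a block called 133 genes higher and 171 lower, no collagen among them.

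Calls between library pairs moved with the fold required, as a lower or higher bar admits more or fewer genes. Shares of all genes called are given here for the 2-fold rule with TMM scaling only. The counts of collagens below therefore cannot be compared with those of other genes. After transplantation in CD39/CD55, 1.5-fold gave 11 higher and 14 lower, and 3-fold gave 5 lower. In CD39/CD46/CD55/TBM, 1.5-fold gave 10 lower and 3-fold gave 3 higher. Between genotypes among transplanted kidneys, 1.5-fold gave 8 higher and 7 lower, 3-fold gave 0 higher, and library size alone gave 1 higher and 7 lower. Among untransplanted kidneys, 1.5-fold gave 8 higher and 11 lower, and 3-fold gave 2 higher and 0 lower. For the difference of ratios, 3-fold gave 0 higher and 2 lower, and library size alone gave 3 higher. Library size alone moved the median of all genes by transplantation in CD39/CD55 to 0.16 (log2).

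Class sums after transplantation kept their direction, with 1 exception. In CD39/CD46/CD55/TBM the basement membrane sum was -0.012 with library size alone and with type IV alone, -0.27 without COL4A1, and reversed to 0.11 without COL4A4. In CD39/CD55 it was -0.67 with library size alone, -0.63 without COL4A4 and -0.87 with type IV alone. The fibrillar sum without COL1A1 was -0.45 in CD39/CD46/CD55/TBM and -0.91 in CD39/CD55, and -1.16 in CD39/CD55 with library size alone. The sum of other collagens was 0.25 in CD39/CD46/CD55/TBM and 0.30 in CD39/CD55 without COL19A1, and 0.32 in CD39/CD55 with library size alone. Over the matrix gene lists, the Wald test called 2 rises and 7 falls. Depth limits COL2A1, COL7A1 and COL9A1 most, with at most 16 counts.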

Other observations

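Macrophage markers, which belong to no comparison above, had low counts of pig genes in transplanted kidneys. Of 9 such genes 6 fell and none rose, and their summed level was 15.2 CPM in transplanted CD39/CD46/CD55/TBM kidney and 9.13 CPM in transplanted CD39/CD55 kidney, against 81.9 CPM (CD39/CD46/CD55/TBM) and 89.8 CPM (CD39/CD55) in untransplanted kidneys. C1QC was at 0 counts in both transplanted libraries. The sources used here do not give the treatment of primate reads. How far macrophages of the recipient were counted was not tested, so these values do not give the number of macrophages in the transplanted kidneys. Of 3 thick limb markers none rose or fell, and their summed level was 385 CPM in transplanted CD39/CD46/CD55/TBM kidney and 661 CPM in transplanted CD39/CD55 kidney, against 1318 CPM (CD39/CD46/CD55/TBM) and 3390 CPM (CD39/CD55) in untransplanted kidneys. The lower sum came mostly from UMOD, with log2 ratios after transplantation of -2.48 in CD39/CD46/CD55/TBM and -2.55 in CD39/CD55. SLC12A1 had 0.34 and 0.03, and CLDN16 had 1.75 and -0.998, in the same comparisons. The sum therefore does not describe all 3 markers.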
